A study of Mus musculus with 8 samples.

Results

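In sorted mouse CD4+ T cells, 9 genes of the PI3K-Akt-mTOR pathway and of the brakes on it were followed across 8 RNA sequencing libraries. They were taken by symbol from the deposited expression table of 24016 genes: the kinase subunits Pik3cd and Pik3r1, the PI3K brakes Pik3ip1 and Inpp5d, the kinases Akt1 and Akt2, the Akt brake Phlpp1, and the mTOR brakes Tsc1 and Tsc2. All 9 were found, and all 9 passed the filter on low values (at least 1 CPM in at least 2 libraries), so each was tested in every comparison. CPM is the number of reads of a gene in each 1000000 that were assigned to any gene.

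In T cells, PI3K is switched on below the antigen receptor, costimulatory receptors and cytokine receptors, and it makes a membrane lipid that recruits Akt. Akt then holds FoxO transcription factors out of the nucleus and inactivates the TSC complex, which frees mTOR complex 1 to drive growth and protein synthesis. Treg cells, the suppressive CD4+ cells defined by the transcription factor Foxp3, are known for restrained signalling through this pathway, and its brakes act at each step: on PI3K itself, on its lipid product, on Akt and on mTOR. All of these steps are controlled largely at the protein level, which RNA levels do not show.

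The cells were sorted from spleen by a green fluorescent reporter of Foxp3, and every group carried that reporter on the NOD background, a strain prone to autoimmune diabetes. Monoclonal Treg (reporter-positive) and monoclonal non-Treg (reporter-negative) cells came from NOD.TCRab.FoxP3GFP.Rag-/- mice, whose labels name a nuclear transfer (NT) origin and a monoclonal T cell receptor. Without the Rag recombinase these mice cannot rearrange receptors of their own. Polyclonal Treg and polyclonal non-Treg cells, labelled WT, came from NOD.FoxP3GFP mice. Receptor, Rag genotype and mouse line changed together, so they cannot be told apart, and the monoclonal mice stand for a single receptor. Each of the 4 groups had 2 libraries, A and B. The age of the mice, and whether libraries came from separate animals or pools, are not given in the sources used here, so p-values measure the spread between these libraries, which may be technical.

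Depth ran from 14076330 to 19722321 reads per library. Foxp3 measured 2281 to 2709 CPM in the 4 Treg libraries. In non-Treg cells it measured 319 to 405 CPM when they came from monoclonal mice and 81.9 to 84.2 CPM when they came from polyclonal mice. All 8 T cell markers looked at were present in every library, and their summed level was 3781 to 4445 CPM in the libraries of monoclonal mice and 5067 to 6157 CPM in those of polyclonal mice. The 9 dendritic cell markers summed to 424 to 470 CPM in Treg and 1766 to 2021 CPM in non-Treg libraries of monoclonal mice, against 16.3 to 20.3 CPM and 38.3 to 45.7 CPM in those of polyclonal mice. Batf3 and Clec9a had 0 reads in both polyclonal Treg libraries, which allows up to 0.152 to 0.213 CPM (3 reads) depending on depth. The 4 class II presentation genes summed to 4751 to 6395 CPM (Treg) and 18273 to 20398 CPM (non-Treg) in monoclonal mice, against 66.4 to 82.9 CPM and 172 to 222 CPM in polyclonal mice. The 8 myeloid markers summed to 272 to 1017 CPM (Treg) and 525 to 658 CPM (non-Treg) in monoclonal mice, against 14.6 to 16.5 CPM and 20.7 to 21.9 CPM in polyclonal mice. B cell markers summed to 49.1 to 67.1 CPM (Treg) and 238 to 289 CPM (non-Treg) in monoclonal mice, against 28.9 to 45.7 CPM and 46.3 to 69.5 CPM. All 4 monoclonal libraries thus stand above the polyclonal ones in dendritic cell, class II and myeloid transcripts. The monoclonal non-Treg libraries are highest in dendritic cell, class II and B cell transcripts. The dendritic cell, class II and myeloid markers move with every comparison between the mice. Of the 5 B cell markers tested, 2 were higher in monoclonal mice in Treg and 4 in non-Treg cells (limma). The dendritic cell, class II and B cell sums also move with the Treg effect in monoclonal mice. The myeloid sums overlapped there, and 3 of the 8 myeloid markers were lower (limma). In the Treg effect in polyclonal mice, all 4 class II genes and 2 of the 9 dendritic cell markers were lower too (limma). The part of these markers in the results below was not tested. The 5 heat shock genes summed higher in replicate B than in replicate A of every group, for example 500 against 256 CPM in monoclonal Treg and 776 against 268 CPM in monoclonal non-Treg cells. Below, values of a group's 2 libraries are given as replicate A, then B.

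Among the 9 genes, the same 3 passed the test in both kinds of mice. Phlpp1, a phosphatase that removes an activating phosphate from Akt, was higher in Treg cells. Pik3ip1, a membrane protein that binds and inhibits PI3K, was lower, and so was Pik3cd, the delta catalytic subunit that dominates in lymphocytes. In monoclonal mice 1 member was higher and 2 were lower, where 24.4% of the 12881 genes tested differed, 10.8% higher and 13.6% lower (limma on log2(CPM + 1), Benjamini-Hochberg adjusted p under 0.05). In polyclonal mice the count was also 1 higher and 2 lower, where 7.90% of genes differed, 4.63% higher and 3.28% lower. edgeR's quasi-likelihood test on the recovered reads called 4 members in monoclonal mice, where it called 20.2% of genes, and 3 in polyclonal mice, where it called 7.11%. The median log2 fold change of the 9 members was -0.17 in monoclonal and 0.04 in polyclonal mice, against -0.02 and 0.00 over all genes. In these bulk libraries, fewer cells that express a gene and less RNA of it per cell cannot be told apart.

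**Figure D1:**
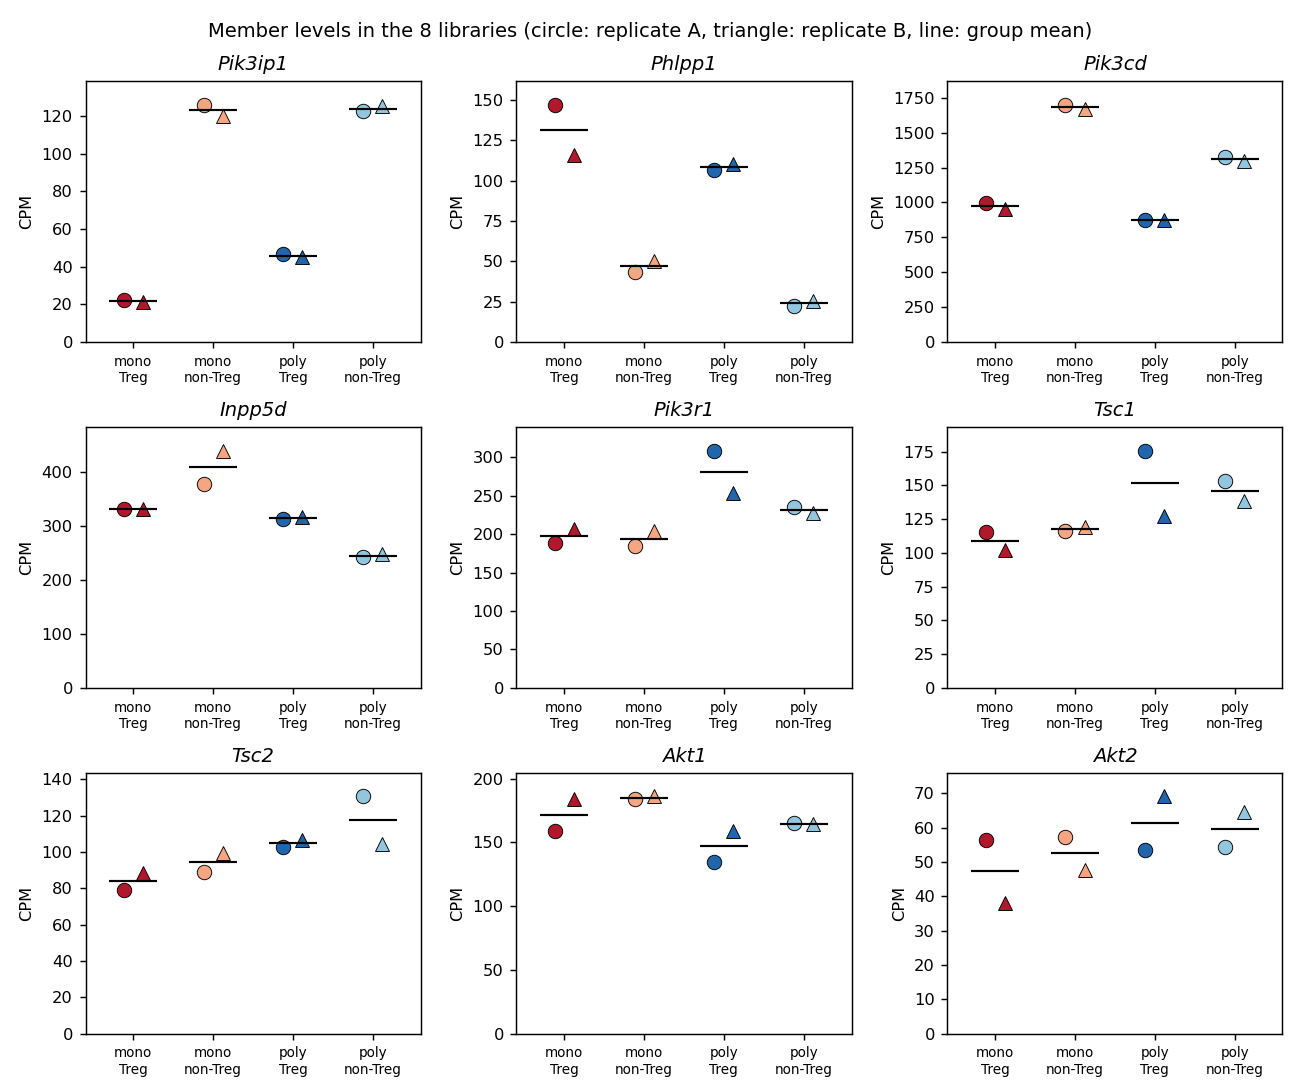
Level of each member (vertical axis, CPM, from 0) in the 8 libraries, by group (horizontal axis; mono, monoclonal; poly, polyclonal). Circles are replicate A, triangles replicate B and lines group means. Pik3ip1 lies between 21.1 and 46.7 CPM in the 4 Treg libraries and between 120 and 126 CPM in the 4 non-Treg libraries, and Phlpp1 shows the opposite order.

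Pik3cd was the most abundant member per kilobase of transcript, at a mean of 239 CPM per kb over the 8 libraries. Its level in monoclonal mice was 996 and 955 CPM in Treg cells against 1700 and 1669 CPM in non-Treg cells. The polyclonal Treg libraries held 872 and 874 CPM, and the non-Treg libraries 1323 and 1296 CPM. All 4 Treg libraries lay below all 4 non-Treg libraries. The log2 fold change was -0.79 ± 0.10 (SE) in monoclonal mice (adjusted p = 6.96e-05) and -0.58 ± 0.10 in polyclonal mice (adjusted p = 0.00167). The polyclonal call was lost when libraries were scaled to the CD3 genes Cd3d, Cd3e and Cd3g (adjusted p = 0.382) and without polyclonal non-Treg replicate A (adjusted p = 0.0514). The difference between the Treg effects was -0.20 (95% interval -0.51 to 0.10, adjusted p = 0.426).

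Between the mice, Pik3cd was higher in non-Treg cells of monoclonal than of polyclonal mice by 0.36 ± 0.10 on the log2 scale (adjusted p = 0.0190). This call did not hold without any 1 of the 4 non-Treg libraries: adjusted p was 0.128 and 0.114 without monoclonal replicates A and B, and 0.146 and 0.190 without polyclonal replicates A and B. The dendritic cell markers are higher in the same monoclonal libraries, and their part in this difference was not tested. Within Treg cells the difference between mice was 0.16 (95% interval -0.05 to 0.38, adjusted p = 0.277). From lowest to highest, the group order of Pik3cd was polyclonal Treg, monoclonal Treg, polyclonal non-Treg and monoclonal non-Treg. The first pair did not pass the test, the middle pair was not compared, and the last pair passed with the limits given above.

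Pik3r1 encodes the regulatory subunits that stabilise the class IA catalytic subunits and hold them inactive at rest. Monoclonal mice gave 189 and 206 CPM of Pik3r1 in Treg cells and 184 and 204 CPM in non-Treg cells, so these groups overlapped. Polyclonal mice gave 309 and 254 CPM in Treg cells and 235 and 227 CPM in non-Treg cells, without overlap. The Treg effect was 0.03 (95% interval -0.26 to 0.31) in monoclonal and 0.28 (95% interval 0.00 to 0.56) in polyclonal mice, with adjusted p of 0.918 and 0.276. Without polyclonal Treg replicate B the polyclonal effect passed the test, at 0.42 (adjusted p = 0.0491). Monoclonal Treg cells had less Pik3r1 than polyclonal Treg cells, by -0.50 ± 0.13 (adjusted p = 0.0123). That call was lost without monoclonal Treg replicate A (adjusted p = 0.0745), without polyclonal Treg replicate A (0.0530), under scaling by the CD3 genes (0.217) and with the non-Treg libraries taken out of the fit (0.0754).

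Set against the other subunits of its family, Pik3cd kept a similar share while the regulatory subunits shifted. Levels per kilobase were summed over the 4 class I catalytic genes in each library, and Pik3cd made up 82.7% to 88.2% of the sum in all 8. Pik3cb, the beta subunit, made up 3.46% and 3.39% (Treg) and 6.07% and 6.08% (non-Treg) in monoclonal mice and 0.684% to 1.27% in polyclonal libraries. Of the regulatory sum, Pik3r1 made up 28.9% and 30.6% in Treg and 17.2% and 19.2% in non-Treg cells of monoclonal mice. Its share in polyclonal mice was 39.6% and 39.3% in Treg and 23.2% and 23.2% in non-Treg cells. The Treg shares lay above the non-Treg shares in both kinds of mice, and these shares do not depend on how libraries are scaled. Pik3r5, a regulatory partner of the gamma catalytic subunit, made up most of the remainder. Its share was 54.4% and 53.1% (Treg) against 71.7% and 67.4% (non-Treg) in monoclonal mice. In polyclonal mice it was 44.5% and 42.9% against 67.1% and 69.5%. The Pik3r2 share was larger in Treg libraries too, and the Pik3r3 share was smaller in monoclonal and larger in polyclonal Treg libraries. The larger Pik3r1 share thus goes with a smaller Pik3r5 share, and shares within class IA alone were not computed. The Pik3r5 level was lower in Treg cells by -1.05 ± 0.13 in monoclonal (adjusted p = 4.28e-05) and -1.13 ± 0.13 in polyclonal mice (adjusted p = 4.96e-05).

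**Figure D2:**
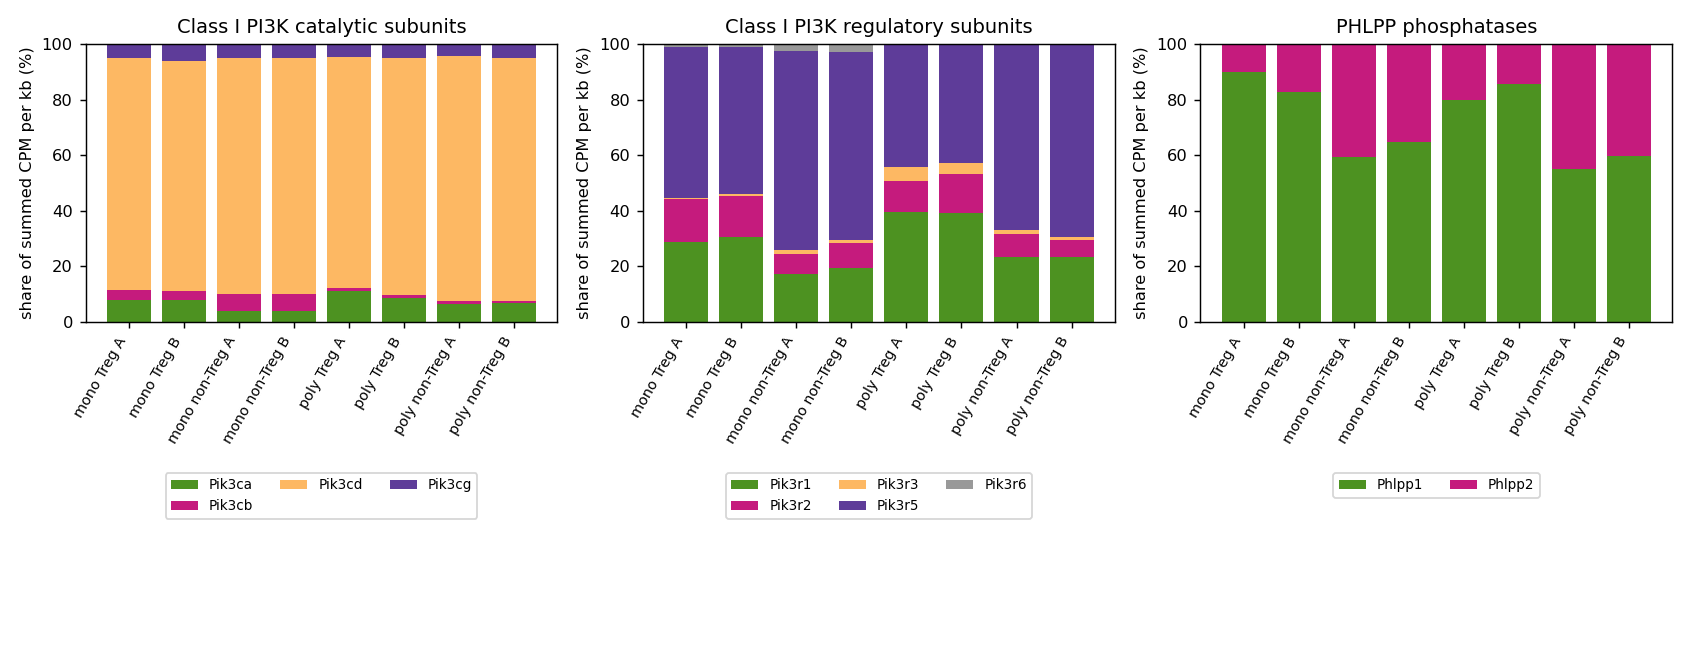
Share of each gene (vertical axis, percent of the summed CPM per kilobase of the family) in the 8 libraries (horizontal axis), for class I PI3K catalytic subunits, regulatory subunits and PHLPP phosphatases. Pik3cd holds 82.7% to 88.2% of the catalytic sum throughout, while the shares of Pik3r1 and Phlpp1 are larger in Treg than in non-Treg libraries of the same mice. The regulatory sum includes Pik3r5, whose share is smaller in Treg libraries.

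Pik3ip1 carried the largest decrease of the 9 in Treg cells. Treg cells of monoclonal mice held 22.3 and 21.1 CPM, and their non-Treg cells 126 and 120 CPM. Treg cells of polyclonal mice held 46.7 and 45.0 CPM, and their non-Treg cells 123 and 125 CPM. The non-Treg libraries of the 2 kinds of mice overlapped, and the Treg libraries lay below them in 2 separate steps. The log2 fold change was -2.45 ± 0.15 in monoclonal mice (adjusted p = 1.89e-07), or 5.46-fold lower, and -1.41 ± 0.15 in polyclonal mice (adjusted p = 3.33e-05), or 2.66-fold lower. Both calls held under all 15 alternatives run, with adjusted p of at most 9.24e-05 and 0.00331.

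The Treg effect on Pik3ip1 was itself larger in monoclonal mice, by -1.04 ± 0.21 (adjusted p = 0.00779). This difference kept its direction under all 14 alternatives, and its call was lost without any 1 of the 4 non-Treg libraries. The adjusted p was then 0.0552 and 0.0551 without monoclonal replicates A and B, and 0.0647 and 0.0614 without polyclonal replicates A and B. Monoclonal Treg cells had less Pik3ip1 than polyclonal Treg cells, at -1.05 ± 0.15 (adjusted p = 0.000176), a call that held under all 15 alternatives. Non-Treg cells of the 2 mice differed by -0.01 (95% interval -0.34 to 0.32, adjusted p = 0.980). Scaled to the CD3 genes that value was 0.51, where the median of all genes shifted by 0.51 as well.

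Inpp5d encodes SHIP1, a phosphatase of blood cells that removes a phosphate from the lipid made by PI3K. The Inpp5d level in monoclonal mice was 331 and 331 CPM in Treg cells, below 378 and 439 CPM in non-Treg cells. In polyclonal mice it was 313 and 316 CPM in Treg cells, above 242 and 248 CPM in non-Treg cells. Treg libraries were thus the lower group in monoclonal and the higher group in polyclonal mice, without overlap in either. Neither effect passed the test on its own, at -0.30 ± 0.12 in monoclonal mice (adjusted p = 0.0795) and 0.36 ± 0.12 in polyclonal mice (adjusted p = 0.0857).

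The difference between these effects on Inpp5d did pass, at -0.66 ± 0.17 (adjusted p = 0.0234). It no longer passed without monoclonal Treg replicate B (adjusted p = 0.0585), monoclonal non-Treg replicate B (0.170) and either polyclonal non-Treg library (0.130 without A, 0.109 without B). The monoclonal Treg effect passed the test in edgeR on the recovered reads (-0.39, adjusted p = 0.0377), when scaled to the CD3 genes (-0.90, adjusted p = 0.0174), and without polyclonal Treg replicate A or B (adjusted p = 0.0273 and 0.0271). Non-Treg cells carried the larger difference between mice: Inpp5d was higher in non-Treg cells of monoclonal than of polyclonal mice by 0.73 ± 0.12 (adjusted p = 0.000333), and within Treg cells the difference was 0.08 (95% interval -0.17 to 0.33, adjusted p = 0.686). SHIP1 is made by most blood cells, the 9 dendritic cell markers are highest in the same monoclonal non-Treg libraries, and their part in this result was not tested.

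Akt1 and Akt2 encode the kinases at the centre of the pathway, and neither passed the test in any of the 5 comparisons. For Akt1, monoclonal mice gave 159 and 184 CPM (Treg) and 184 and 186 CPM (non-Treg), and polyclonal mice 134 and 159 CPM (Treg) and 165 and 164 CPM (non-Treg). The Treg effect on Akt1 was -0.11 (95% interval -0.40 to 0.17) in monoclonal and -0.17 (95% interval -0.45 to 0.12) in polyclonal mice. Akt2, the isoform best known from insulin-responsive tissues, gave 56.4 and 38.2 CPM (Treg) and 57.2 and 47.7 CPM (non-Treg) in monoclonal mice, and 53.6 and 69.1 CPM (Treg) and 54.4 and 64.5 CPM (non-Treg) in polyclonal mice. Its 4 groups overlapped, and the 95% intervals of its Treg effects, -0.62 to 0.29 and -0.42 to 0.49, leave room for changes of the size seen for Inpp5d. Scaled to the CD3 genes, Akt1, Akt2 and Tsc2 passed the test as lower in monoclonal Treg cells (-0.71, -0.76 and -0.77, adjusted p = 0.0377, 0.0332 and 0.0350), where the median of all genes shifted by -0.59. The 8 T cell markers did not move together there: 4 were higher and 1 lower in monoclonal Treg cells (limma). Mean Cd3e was 742 CPM in Treg against 430 CPM in non-Treg cells. Mean Cd4, the 1 lower marker, was 809 against 1308 CPM, and in polyclonal mice it was also lower in Treg cells (1112 against 1635 CPM). Whether scaling by the CD3 genes follows T cell content was not tested.

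Phlpp1 was the only member higher in Treg cells in both kinds of mice by limma. The Treg libraries held 147 and 116 CPM in monoclonal and 107 and 110 CPM in polyclonal mice. The non-Treg libraries held 43.8 and 50.3 CPM in monoclonal and 22.4 and 25.8 CPM in polyclonal mice. The lowest Treg library lay above the highest non-Treg library across both kinds of mice. The log2 fold change was 1.46 ± 0.17 in monoclonal mice (adjusted p = 3.52e-05), or 2.75-fold, and 2.13 ± 0.17 in polyclonal mice (adjusted p = 2.59e-06), or 4.38-fold. Both calls held under all 15 alternatives run, with adjusted p of at most 0.0217 and 0.00175.

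Between the mice, Phlpp1 was higher in non-Treg cells of monoclonal than of polyclonal mice by 0.94 ± 0.17 (adjusted p = 0.00103, held under all 15 alternatives). Within Treg cells the difference was 0.26 (95% interval -0.10 to 0.63, adjusted p = 0.294). The difference of the 2 Treg effects was -0.67 ± 0.24 and did not pass (adjusted p = 0.103). It passed scaled to the CD3 genes (-1.26, adjusted p = 0.0414) and without monoclonal Treg replicate A (-0.84, adjusted p = 0.0496). Foxp3 itself was higher in non-Treg libraries of monoclonal than of polyclonal mice (405 and 319 against 81.9 and 84.2 CPM), and its part in the Phlpp1 level was not tested. Of the summed level of Phlpp1 and its relative Phlpp2 per kilobase, Phlpp1 made up 89.9% and 82.7% (Treg) and 59.3% and 64.7% (non-Treg) in monoclonal mice, and 79.8% and 85.6% (Treg) and 54.8% and 59.7% (non-Treg) in polyclonal mice.

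Pik3ip1, Phlpp1 and Inpp5d, the brakes on PI3K and Akt among the members, each have a single start in the RefSeq promoter table (GRCm38.p6), and the 250 bases before it are shown so that the regions in front of genes that moved in opposite directions can be compared. They lie at chr11:3330481-3330730 (plus strand), chr1:106171619-106171868 (plus strand) and chr1:87620062-87620311 (plus strand). Capitals mark matches to a Klf-type motif, CCACCC, on either strand (GGGTGG on the other).
Pik3ip1: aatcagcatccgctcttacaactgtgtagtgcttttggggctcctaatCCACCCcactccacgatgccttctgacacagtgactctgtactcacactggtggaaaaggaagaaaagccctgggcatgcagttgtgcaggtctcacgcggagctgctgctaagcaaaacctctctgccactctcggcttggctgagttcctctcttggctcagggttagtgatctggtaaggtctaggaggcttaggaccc
Phlpp1: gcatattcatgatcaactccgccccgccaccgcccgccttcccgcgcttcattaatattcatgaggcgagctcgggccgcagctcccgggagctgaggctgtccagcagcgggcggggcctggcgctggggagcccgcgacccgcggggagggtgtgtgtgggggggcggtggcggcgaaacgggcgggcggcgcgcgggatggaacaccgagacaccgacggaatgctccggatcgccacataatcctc
Inpp5d: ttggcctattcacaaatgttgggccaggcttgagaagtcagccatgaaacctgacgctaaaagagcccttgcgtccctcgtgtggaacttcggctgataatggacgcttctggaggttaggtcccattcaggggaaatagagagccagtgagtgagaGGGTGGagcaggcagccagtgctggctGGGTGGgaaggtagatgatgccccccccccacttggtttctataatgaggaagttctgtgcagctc
The Klf-type motif was found once in the Pik3ip1 window and at 2 places in the Inpp5d window, and 28.1% of the 32851 promoter windows of this length hold it. Neither the forkhead motif GTAAACA (or its reverse complement), held by 3.17% of windows, nor the Ets-type motif CCGGAA (likewise), held by 12.0%, was found in these 3 windows. The motifs do not overlap here, and a match is a string of letters, not a measured binding site. The Phlpp1 window is 70% G and C, against 53.6% for Pik3ip1 and 54.4% for Inpp5d. The same search in the windows of the other members found the Klf-type string in 2 of 3 Pik3cd windows, 1 of 2 Pik3r1, 1 of 2 Akt1 and 2 of 4 Akt2 windows, the forkhead string in the other Akt1 window and the Ets-type string in the Tsc2 window. None of the 3 was in the Tsc1 window.

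In the deposited table, on the mouse build mm9, Pik3ip1 (NM_178149) spans 3230734 to 3242974 of chromosome 11, Phlpp1 (NM_133821) 108068446 to 108290822 of chromosome 1 and Inpp5d (NM_001110192) 89516887 to 89617085 of chromosome 1. Pik3cd (NM_008840) spans 149023277 to 149072817 of chromosome 4 and Pik3r1 (NM_001077495) 102450716 to 102538172 of chromosome 13. Akt1 (NM_009652) spans 113892032 to 113912487 of chromosome 12, Akt2 (NM_001110208) 28376579 to 28424472 of chromosome 7, Tsc1 (NM_001289575) 28496753 to 28546692 of chromosome 2 and Tsc2 (NM_011647) 24732761 to 24769572 of chromosome 17. Counts are over whole genes, each listed with 1 transcript, so the isoforms of Pik3r1 are not separated.

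Tsc1 and Tsc2 encode the partners that restrain mTOR complex 1 by switching off Rheb. For Tsc1, monoclonal mice gave 116 and 102 CPM (Treg) and 116 and 119 CPM (non-Treg), and polyclonal mice 176 and 127 CPM (Treg) and 153 and 139 CPM (non-Treg). For Tsc2, the same groups gave 79.0 and 88.6, 89.3 and 99.3, 103 and 107, and 131 and 104 CPM, in that order. For both genes every monoclonal library lay below every polyclonal library, but only the Tsc1 difference within Treg cells passed the test. Over all genes 24.2% differed between the mice in Treg cells and 19.4% in non-Treg cells (limma). The Treg effects on Tsc1 were -0.12 (95% interval -0.45 to 0.22) and 0.04 (95% interval -0.30 to 0.37) in monoclonal and polyclonal mice, and those on Tsc2 were -0.17 (95% interval -0.49 to 0.16) and -0.15 (95% interval -0.48 to 0.17).

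Between the mice, Tsc1 was lower in monoclonal than in polyclonal Treg cells by -0.46 ± 0.16, just past the threshold (adjusted p = 0.0486). The call held under 2 of 15 alternatives, and leaving out any library other than polyclonal Treg replicate B ended it (adjusted p of 0.0644 to 0.310), as did TMM scaling (0.0994) and edgeR (0.0676). For Tsc2 the same difference was -0.32 ± 0.15 (adjusted p = 0.143). In non-Treg cells the differences were -0.31 ± 0.16 for Tsc1 and -0.31 ± 0.15 for Tsc2 (adjusted p = 0.210 and 0.187), and both turned to 0.21 when scaled to the CD3 genes, where the median of all genes shifted by 0.51.

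**Figure D3:**
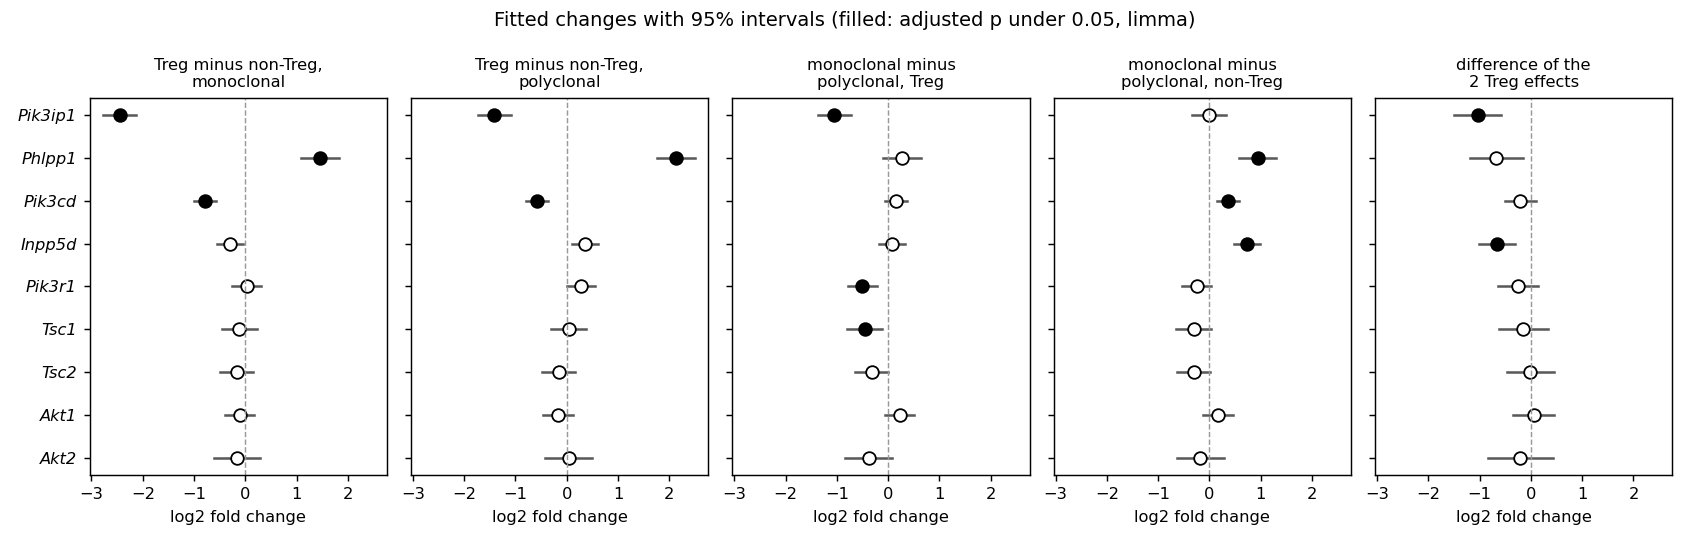
Fitted log2 fold changes (horizontal axis) of the 9 members (vertical axis) in the 5 comparisons, with 95% intervals as lines. Filled points passed the test (limma, adjusted p under 0.05). Pik3ip1, Phlpp1 and Pik3cd are filled in both Treg effects, and Akt1, Akt2 and Tsc2 are open in every panel.

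Comparing the mice within Treg cells, 3 members were lower in monoclonal cells (Pik3ip1, Pik3r1 and Tsc1) and 0 higher by limma, where 24.2% of all genes differed, 12.1% in each direction. At an unadjusted p under 0.05 the counts were again 3 and 0, and edgeR called 2 lower and 0 higher, where it called 20.5% of genes. Within non-Treg cells, 3 members were higher in monoclonal cells (Phlpp1, Inpp5d and Pik3cd) and 0 lower by limma, where 19.4% of genes differed, 12.1% higher and 7.35% lower. The counts were 3 and 0 at an unadjusted p under 0.05 and in edgeR too, which called 15.3% of genes. The difference of the Treg effects passed in limma for 2 members, Pik3ip1 and Inpp5d, both negative, where 9.20% of genes passed, 3.64% positive and 5.56% negative. At an unadjusted p under 0.05 it was 3 negative and 0 positive, and in edgeR 2 and 0, where 7.35% of genes passed. These comparisons share libraries with the 2 Treg effects and are not independent of them. In the same comparisons between the mice, all 8 myeloid markers and all 4 class II genes were higher in monoclonal cells, with 7 of the 9 dendritic cell markers in Treg and 8 of 9 in non-Treg cells (limma).

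The other genes of the pathway gave the setting for these members. Besides the 9, 86 pathway genes in 11 functional lists were in the table, and 85 passed the filter on low values (Ddit4l did not). In monoclonal Treg cells 12 of the 85 were higher and 18 lower, and in polyclonal Treg cells 4 were higher and 6 lower. That is 35.3% and 11.8%, against 24.4% and 7.90% of all genes, and the medians were 0.05 and -0.01 against -0.02 and 0.00. Scaled to the CD3 genes, the split over the pathway lists with the members was 4 higher and 37 lower in monoclonal mice, against 13 and 20 as deposited. For non-Treg cells between the mice it was 18 higher and 1 lower against 14 and 11, and for the difference of the effects 1 and 16 against 8 and 10. Genes named below to account for a small count, and not picked by the naming rule, were chosen after their values were seen.

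Most of the class I PI3K subunits and their adaptor were lower in Treg cells of monoclonal mice. Of the 10 genes of this list, 7 were lower in Treg than in non-Treg cells of monoclonal mice and 0 higher by limma (7 and 0 also unadjusted and in edgeR). Over all genes, 13.6% were lower and 10.8% higher by limma. The median of the list was -0.92 against -0.02 over all genes. The 7 were Pik3cb, Pik3cd, Pik3cg, Pik3r3, Pik3r5, Pik3r6 and Pik3ap1. In polyclonal mice Pik3cd and Pik3r5 were lower, in edgeR as well, where 3.28% of all genes were lower by limma. The median was -0.02 against 0.00. Pik3ap1, an adaptor that couples receptors of B cells and myeloid cells to PI3K, gave 16.3 and 17.6 CPM (Treg) and 82.1 and 87.5 CPM (non-Treg) in monoclonal mice, against 1.49 to 5.16 CPM in the 4 polyclonal libraries. Pik3cb gave 39.4 and 37.4 CPM (Treg) and 116 and 114 CPM (non-Treg) in monoclonal mice, against 9.68 to 13.7 CPM in the polyclonal libraries. Pik3r6 made up 1.14% and 0.935% (Treg) and 2.46% and 3.05% (non-Treg) of the regulatory sum in monoclonal mice, against at most 0.0135% in polyclonal libraries. These genes, Pik3r6 by its share, were highest where the dendritic cell and B cell markers were highest. The part of such cells in these levels was not tested. Between the mice, Pik3ap1 differed by 2.52 ± 0.32 in Treg and 4.01 ± 0.32 in non-Treg cells, and Pik3cb by 1.65 ± 0.22 and 3.21 ± 0.22 (adjusted p of at most 9.27e-05).

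Pik3r3, a further regulatory subunit, went the other way between the mice. Monoclonal mice gave 0.986 and 2.88 CPM (Treg) and 10.2 and 10.1 CPM (non-Treg), and polyclonal mice 27.8 and 17.3 CPM (Treg) and 10.6 and 7.29 CPM (non-Treg). The difference of its Treg effects was -3.24 ± 0.56 (adjusted p = 0.00262), and it held under all 14 alternatives. Monoclonal Treg cells had less of it than polyclonal Treg cells, by -3.05 ± 0.39 (adjusted p = 6.27e-05).

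Among the 8 brakes on PI3K and its lipid product, 2 were higher and 1 lower in monoclonal Treg cells, and 1 was higher and 1 lower in polyclonal Treg cells. Of all genes, 24.4% differed in monoclonal and 7.90% in polyclonal mice (limma). The lower gene was Pik3ip1 in both. Inpp4b, a phosphatase that acts on a later lipid of the same pathway, measured 846 and 774 CPM in Treg against 405 and 366 CPM in non-Treg cells of monoclonal mice (1.07 ± 0.13, adjusted p = 5.08e-05). In polyclonal mice it measured 877 and 683 CPM in Treg against 562 and 517 CPM in non-Treg libraries (0.52 ± 0.13, adjusted p = 0.0240). The polyclonal call was lost under 8 of 15 alternatives, with adjusted p of up to 0.573, among them leaving out either polyclonal non-Treg library (0.110 and 0.277), polyclonal Treg replicate A (0.0583) or either monoclonal non-Treg library (0.0552 and 0.0556). The monoclonal call was lost scaled to the CD3 genes (0.47, adjusted p = 0.210). Inppl1, the SHIP relative found outside blood cells as well, was higher in monoclonal Treg cells by 0.48 ± 0.14 (adjusted p = 0.0240). That call was lost in edgeR (adjusted p = 0.0587), without monoclonal Treg replicate B (0.170), without either monoclonal non-Treg library (0.0885 and 0.174) and without polyclonal non-Treg replicate A (0.0503), and its direction turned when scaled to the CD3 genes (-0.12).

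**Figure D4:**
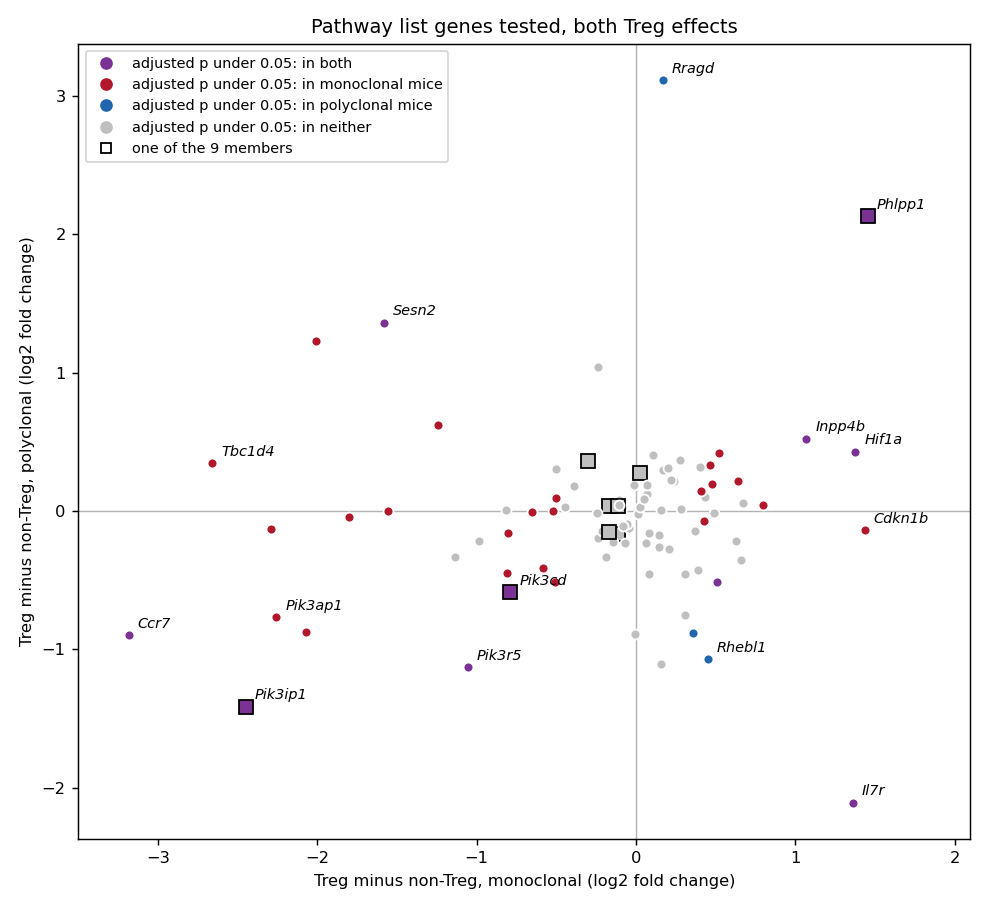
Treg effect in monoclonal mice (horizontal axis, log2 fold change) against the Treg effect in polyclonal mice (vertical axis) for the 94 pathway list genes tested. Squares are the 9 members and colours give the calls (limma). Phlpp1 lies at the upper right and Pik3ip1 at the lower left, while Il7r and Sesn2 passed in opposite directions.

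Further down the pathway, the lists of kinases, TSC genes and mTOR complexes gave counts to be read against 24.4% of all genes in monoclonal and 7.90% in polyclonal mice. Of the 4 genes of Akt and its activating kinase Pdpk1, and of the 6 Akt brakes, 0 and 2 passed in monoclonal mice (the 2 being Phlpp1 and the phosphatase subunit Ppp2cb) and 0 and 1 in polyclonal mice, the 1 being Phlpp1 (limma). Ppp2cb gave 0.46 ± 0.16 (adjusted p = 0.0482) and was lost under 11 of 15 alternatives (adjusted p of up to 0.709), edgeR (0.106), TMM scaling (0.0564) and leaving out any monoclonal or polyclonal non-Treg library (0.0938 to 0.289) or either monoclonal Treg library (0.0996 and 0.0963) among them. Of the 4 Akt genes, 0 passed in edgeR in either kind of mice, and unadjusted 0 passed in monoclonal mice and 2 were lower in polyclonal mice. Of 9 genes of the mTOR complexes, 3 were lower in monoclonal Treg cells: Rictor at -0.51 ± 0.17, Akt1s1 at -0.81 ± 0.24 and Prr5l at -2.07 ± 0.35 (adjusted p = 0.0428, 0.0245 and 0.000751), and 5 were lower at an unadjusted p under 0.05. Prr5l held under all 15 alternatives. Rictor was lost under 9, leaving out any of the 4 monoclonal libraries (0.0684 to 0.270) or either polyclonal non-Treg library (0.0694 and 0.0692) among them. Akt1s1 was lost under 4, among them without monoclonal Treg replicate B (0.165) and without either monoclonal non-Treg library (0.0660 and 0.224). In polyclonal mice 0 of the 9 passed by limma or edgeR, and 2 were lower at an unadjusted p under 0.05. Mtor itself lay between 95.9 and 119 CPM in all 8 libraries. Of the 5 TSC and Rheb genes, Rhebl1 was lower in polyclonal Treg cells at -1.07 ± 0.31 (adjusted p = 0.0480), a call lost under 11 of 15 alternatives, leaving out either polyclonal non-Treg library (0.188 and 0.386), either monoclonal non-Treg library (0.0897 and 0.0873) or polyclonal Treg replicate A (0.232) among them.

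Deptor, a brake bound to mTOR, was low throughout. Monoclonal mice gave 6.64 and 2.99 CPM (Treg) and 9.65 and 12.8 CPM (non-Treg), and the polyclonal libraries 1.12 to 2.13 CPM. It was higher in non-Treg cells of monoclonal than of polyclonal mice by 2.02 ± 0.42 (adjusted p = 0.00307), a call that ended without replicate B of the monoclonal non-Treg cells (0.0614). Deptor is highest in the libraries with the most dendritic cell transcripts, whose part was not tested. In Treg cells the same comparison gave 1.23 ± 0.42 (adjusted p = 0.0496) and was lost under 13 of 15 alternatives, 7 of the 8 that leave out a library among them (0.0814 to 0.222), with monoclonal Treg replicate B the exception.

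Inputs to mTOR that report nutrients and stress held the largest increase of the pathway in polyclonal Treg cells. Rragd, a GTPase that brings mTOR to the lysosome when amino acids are present, measured 38.4 and 33.4 CPM in Treg and 4.24 and 2.45 CPM in non-Treg cells of polyclonal mice (3.11 ± 0.40, adjusted p = 0.000160). In monoclonal mice it measured 10.7 and 4.74 CPM in Treg and 8.21 and 4.77 CPM in non-Treg libraries, which overlapped. The difference of the 2 effects was -2.94 ± 0.57 (adjusted p = 0.00524), and it held under all 14 alternatives. Sesn2, a sestrin that restrains mTOR complex 1 when leucine is short, rose in polyclonal Treg cells and fell in monoclonal Treg cells. It measured 9.95 and 12.5 CPM against 3.86 and 3.61 CPM in polyclonal mice (1.36 ± 0.29, adjusted p = 0.00829) and 12.7 and 12.8 CPM against 34.5 and 46.7 CPM in monoclonal mice (-1.58 ± 0.29, adjusted p = 0.00127). The polyclonal call was lost without replicate A or B of the polyclonal non-Treg cells (adjusted p = 0.0638 and 0.0880). Sesn2 is also highest in the libraries with the most dendritic cell transcripts, whose part was not tested.

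Among targets and outputs, the Akt substrate Tbc1d4, which controls glucose transporter traffic, fell to 60.9 and 36.9 CPM in Treg cells of monoclonal mice and lay at 262 to 365 CPM in the other 6 libraries. The difference of its Treg effects was -3.01 ± 0.26 (adjusted p = 1.88e-05, held under all 14 alternatives). Hif1a, a transcription factor whose translation mTOR promotes, measured 371 and 372 CPM in Treg and 139 and 146 CPM in non-Treg cells of monoclonal mice (1.38 ± 0.12, adjusted p = 2.44e-06). In polyclonal mice its increase was 0.43 ± 0.12 (adjusted p = 0.0404) and was lost under 10 of 15 alternatives, leaving out either polyclonal non-Treg library (0.312 and 0.264), either monoclonal non-Treg library (0.0820 and 0.0826) or polyclonal Treg replicate B (0.0863) among them. Pdcd4, a brake on translation that the pathway removes, was lower in non-Treg cells of monoclonal than of polyclonal mice, at 295 and 293 against 473 and 510 CPM (-0.74 ± 0.11, adjusted p = 0.000259).

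Genes that FoxO factors switch on when Akt is quiet did not move as a block. Of the 12 genes of that list, factors included, 5 were higher and 3 lower in monoclonal Treg cells (3 and 3 in edgeR), and 4 were lower and 0 higher in polyclonal Treg cells (limma; edgeR also 4 and 0, and 4 and 2 unadjusted). By limma 24.4% of all genes differed in monoclonal and 7.90% in polyclonal mice. The medians of the list were 0.32 and 0.00, against -0.02 and 0.00 over all genes. Cdkn1b, a cell cycle inhibitor, stood at 431 and 450 CPM in Treg cells of monoclonal mice and 143 to 240 CPM in the other 6 libraries (Treg effect 1.44 ± 0.13, adjusted p = 4.78e-06). Il7r, the interleukin-7 receptor, measured 1212 and 1293 CPM (Treg) and 511 and 464 CPM (non-Treg) in monoclonal mice and 212 and 180.4 CPM (Treg) and 792 and 903 CPM (non-Treg) in polyclonal mice. It rose by 1.36 ± 0.12 in monoclonal and fell in polyclonal Treg cells (-2.11 ± 0.12), a difference of 3.47 ± 0.17 (adjusted p = 1.39e-07). Klf2, a factor that keeps T cells recirculating, had a difference of 1.24 ± 0.22 (adjusted p = 0.00299). For Cdkn1b it was 1.58 ± 0.19 (adjusted p = 0.000174), and both calls were lost when scaled to the CD3 genes (0.64 and 0.98, adjusted p = 0.236 and 0.0891). The homing receptor Ccr7 was lower in monoclonal Treg cells, at -3.18 ± 0.17 (adjusted p = 3.68e-08). In polyclonal mice Ccr7 was lower by -0.90 ± 0.17, a call lost without polyclonal non-Treg replicate B (adjusted p = 0.0582).

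Between non-Treg cells of the 2 mice, Inpp4a and Sesn3 were both lower in monoclonal cells. Inpp4a, the relative of Inpp4b, measured 93.3 and 96.4 against 170 and 161 CPM (-0.79 ± 0.16, adjusted p = 0.00216), and Sesn3 measured 56.7 and 69.1 against 115 and 95.5 CPM (-0.74 ± 0.16, adjusted p = 0.00479). The Sesn3 call was lost when replicate A of the monoclonal non-Treg cells was left out (adjusted p = 0.0845) and without polyclonal non-Treg replicate A (0.115). Scaled to the CD3 genes, neither passed, and neither did the lower Il7r or Pdcd4 of the same comparison (adjusted p of 0.518 to 0.608).

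The 3 members with the widest range of group means were matched to the genes with the most similar pattern, by Pearson's r of log2(CPM + 1) over the 8 libraries among 7838 genes. The libraries are 4 groups of 2, so these values mostly compare 4 group levels. For Phlpp1 the nearest genes were St3gal2 (r = 0.990), Foxp3 (r = 0.989) and the integrin Itgae (r = 0.984). The cells were sorted by a reporter of Foxp3, so its match to a member that separates Treg from non-Treg libraries follows in part from the design. For Pik3ip1 they were Stt3b (r = 0.987), Lss (r = 0.985) and the actin crosslinker Actn1 (r = 0.980). For Pik3cd they were Elmo1 (r = 0.985), Evi2b (r = 0.981) and the joined transcript Evi2a-evi2b (r = 0.981), which shares sequence with Evi2b.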

How the data were processed

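Poly-dT selected RNA was sequenced as single-end 50 bp reads with strand kept, per the labels' protocols. The submitters' processing notes name, without roles, the aligner STAR 2.4.1a, HOMER 4.7, Trimmomatic 0.33, CASAVA 1.8.2, FastQC 0.10.1, edgeR and the build mm9. The sources used here do not say how reads shared by several genes were treated. The deposited values are CPM: each library sums to 1000000. All values (100%) were whole multiples of 1 read within 0.01 read, so reads were recovered, and 3 reads, the limit that a count of 0 allows, are 0.152 to 0.213 CPM. These limits cover counting error only. Titles gave groups and replicates, and 0 per-sample columns were left unused.

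The main test was limma 3.58.1 (R 4.3.3) on log2(CPM + 1), trend and robust, with 4 group means over all 8 libraries and 12881 genes (at least 1 CPM in at least 2 libraries), 2-sided, Benjamini-Hochberg adjusted, threshold 0.05. The pseudocount understates changes of low genes. Errors are SE. edgeR 4.0.16 on the recovered reads was an alternative, with TMM or CD3 (Cd3d, Cd3e, Cd3g) scaling, a pseudocount of 0.25, no filter, a replicate block, only the 4 libraries compared, and each library left out. The fit was tested on simulated data.

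The 9 members and all lists were chosen with earlier results of these data known. Of the other pathway genes, the 4 largest changes each way per comparison were named, among those past the threshold whose log2(CPM + 1) averaged 2 or more and, except for the difference of the effects, whose groups did not overlap. Some genes of the lists are not reported here.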

Additional observations from a re-analysis of the deposited data

Results flagged for a closer look

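The Treg effect differed between the 2 kinds of mice for 2 members, by a test of the difference itself (limma, adjusted p under 0.05). For Pik3ip1 the effect in monoclonal minus that in polyclonal mice was -1.04 (adjusted p = 0.00779), with Treg libraries at 21.1 to 22.3 CPM in monoclonal and 45.0 to 46.7 CPM in polyclonal mice. For Inpp5d it was -0.66 (adjusted p = 0.0234), with Treg below non-Treg libraries in monoclonal mice and above them in polyclonal mice. Over all 14 alternatives the adjusted p ran from 0.00470 to 0.0647 for Pik3ip1 and from 0.0109 to 0.170 for Inpp5d, and both kept their direction in all 14.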

How the results depend on the processing

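Counts below are of genes past the adjusted threshold (limma unless named). Scaled to the CD3 genes, the member count went from 3 to 7 for the Treg effect in monoclonal mice and from 3 to 1 between Treg cells of the mice. Pathway list genes (members included) went from 13 to 7 for the Treg effect in polyclonal mice (all genes from 1018 to 496) and from 30 to 14 between Treg cells (all genes from 3116 to 1707). With only the 4 libraries compared, the same counts were 8 and 673, and 18 and 1721, with 1 member between Treg cells. Between non-Treg cells that fit raised members from 3 to 5, pathway genes from 25 to 45 and all genes from 2505 to 4413. Without the filter, the difference of the Treg effects passed for 756 genes instead of 1185.

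With each library left out in turn, the member counts ran from 3 to 4 and from 2 to 4 for the Treg effects in monoclonal and polyclonal mice, from 1 to 3 and from 2 to 3 between Treg and between non-Treg cells, and from 0 to 3 for the difference. The 0 arose when replicate B of the monoclonal, or either replicate of the polyclonal, non-Treg cells was left out. Pathway counts ran, in the same order, from 17 to 42, 6 to 17, 22 to 36, 14 to 36 and 11 to 22. Counts over all genes ran from 1306 to 3774, 429 to 1231, 2416 to 3583, 1373 to 3227 and 361 to 1658. The lowest pathway and all-gene counts of the Treg effects came without non-Treg replicate B of the same mice.

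Of the values that changed sign, only Inppl1 (-0.12) and Ppp2cb (-0.13) in the monoclonal Treg effect, scaled to the CD3 genes, had passed the test as deposited, and none passed after the change. Scaled to the CD3 genes the others were Pik3r1 (-0.58) in the monoclonal Treg effect, Inpp5d (-0.0050) between Treg cells, Pik3r1 (0.27), Pik3ip1 (0.51), Akt2 (0.33), Tsc1 (0.21) and Tsc2 (0.21) between non-Treg cells, and Akt1 (-0.54) in the difference. In edgeR they were Pik3r1 (-0.062), Pik3ip1 (0.069) and Akt1 (-0.0059) in the same comparisons, and under TMM scaling Pik3ip1 (0.072). With a library left out, Pik3r1 ran from -0.048 to 0.098 and Akt2 from -0.44 to 0.11 in the monoclonal Treg effect. Akt2 ran from -0.14 to 0.22, Tsc1 from -0.20 to 0.27 and Tsc2 from -0.32 to 0.0056 in the polyclonal one. Pik3ip1 ran from -0.044 to 0.023 between non-Treg cells. In the difference, Akt1 ran from -0.064 to 0.18, Akt2 from -0.48 to 0.073, Tsc1 from -0.38 to 0.082 and Tsc2 from -0.17 to 0.15.

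The labels do not say that the letters A and B pair samples across groups. A minus B correlated at 0.109 and 0.0753 between the Treg and non-Treg libraries of monoclonal and polyclonal mice, at -0.0176 and -0.0113 between the mice within Treg and non-Treg cells, and at -0.128 and 0.0146 between the groups that share neither. With a replicate block, 3, 3, 3, 3 and 2 members passed in the 5 comparisons, as without it, and 3032 and 945 of all genes in the Treg effects. The cause of these shifts was not tested. With 2 libraries a group, small changes of the Akt and TSC genes cannot be told from none.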

Other observations

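Within single libraries, the 2 brakes that moved in opposite directions gave a ratio that does not depend on scaling. Per kilobase, Phlpp1 stood to Pik3ip1 at 2.42 and 2.02 (Treg) and 0.128 and 0.154 (non-Treg) in monoclonal mice, and at 0.838 and 0.900 (Treg) and 0.0671 and 0.0757 (non-Treg) in polyclonal mice. The 4 groups did not overlap. Both genes were chosen with their changes known, so this is a description. Phlpp1 stood to its substrate Akt1 at 0.276 to 0.407 in the Treg libraries and 0.0597 to 0.119 in the non-Treg libraries.

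Tsc1 stood to Tsc2 at 0.931 to 1.38 per kilobase over the 8 libraries, and there the Treg and non-Treg libraries overlapped.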
